A study of Mus musculus with 6 samples.

Results

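Organic solute carriers are membrane proteins that move amino acids, sugars, vitamins, transmitters, nucleosides and other small organic molecules across cell membranes. Most use the gradient of sodium or protons, or exchange 1 solute for another, and related genes share a numbered family. In brain the endothelial cell decides which of these solutes pass between blood and tissue, while carriers of astrocytes and neurons clear transmitters and feed those cells. The carriers described here are the 93 genes of the deposited table, out of 10989, whose symbol has the form of an Slc family member and whose family carries mainly organic solutes. The rule used symbol, family number and 12 names to leave out, and no measured value. It was set with earlier results of these data known. From 195 such symbols, 90 of inorganic ion, metal and mitochondrial families and 12 well-known carriers (among them Slc2a1, Slc7a5, Slc16a1 and the astrocyte glutamate carriers Slc1a2 and Slc1a3) were set aside. The choice by family number keeps the copper carriers Slc31a1 and Slc31a2, the haem carrier Slc48a1 and the iodide carrier Slc5a5, which are not carriers of typical organic solutes.

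The RNA came from mouse brain carrying Tie2-cre together with NuTRAP, a reporter that puts EGFP on ribosomes and a red label on nuclei where Cre is active. The Tie2 promoter is active in endothelial cells and also in some cells of blood origin, and the labels describe EGFP+ cells with CD11b as putative microglia. All 6 libraries have this genotype, and their titles also read WT; the labels used here give no age or treatment. The 3 Input libraries come from the dissociated brain suspension and the 3 Positive libraries from cells of that suspension sorted as EGFP+, CD31+ and CD11b-, with replicate numbers 1222, 1223 and 1227 in each fraction. Input also contains endothelial cells, so a fold change is the level in sorted cells relative to the mixed suspension. In such bulk libraries, fewer cells of a type and less RNA per cell cannot be told apart. Nothing in the labels says whether a number is a separate animal, although the series text calls the replicates biological, so p-values measure the spread between these libraries.

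Summed estimated counts ran from 4772866 to 52283556 per library, and both 1223 libraries were the shallowest. Of 16 pan-endothelial markers 16 were higher in Positive, with a summed level of 3490 to 4630 CPM (counts scaled to a common library size after TMM adjustment) in Input and 26500 to 28600 CPM in Positive. Of 12 microglial, 13 astrocyte, 11 oligodendrocyte and 9 tested neuronal markers 12, 12, 11 and 8 were lower. The summed microglial level was 6690 to 12200 CPM in Input and 1520 to 3160 CPM in Positive, the astrocyte level without Glul, which did not pass the test, 6670 to 10600 and 648 to 991 CPM, the oligodendrocyte level 19500 to 29000 and 653 to 1410 CPM, and the neuronal level 534 to 670 and 62.3 to 87.1 CPM. Perivascular macrophage markers were uneven: their sum was 635, 604 and 571 CPM in Input 1222, 1223 and 1227 and 3490, 1380 and 666 CPM in Positive. Pericyte markers, of which 8 of 9 were higher, summed to 686 to 807 CPM in Input and 1260 to 2000 CPM in Positive. Every tested marker of choroid plexus (8), ependymal cells (5), fibroblasts and meninges (5) and oligodendrocyte precursors (6) was lower. The choroid plexus sum was 2940 to 6380 CPM in Input and 367 to 953 CPM in Positive, and the fibroblast sum 426 to 555 and 168 to 197 CPM. Apart from 1 of the 5 ependymal markers, no tested marker of these cell types was below 1 CPM in all Positive libraries. The part of pericyte and macrophage RNA in the rises described here was not tested.

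Of the 93 carriers, 22 were higher in the sorted cells, 49 were lower and 22 did not pass the test (quasi-likelihood test of edgeR, with p adjusted by Benjamini-Hochberg over all 10989 genes and called below 0.05). Over all genes 26.1% were higher and 29.4% lower, against 23.7% and 52.7% of the carriers. The share of higher carriers was therefore near that of all genes, and the share of lower carriers above it. The carrier shares leave out the 12 carriers set aside by name, of which 9 were higher and 3 lower. With library size alone as the scaling 20.4% of the carriers were higher and 54.8% lower, against 19.7% and 33.4% of all genes. The median log2 fold change was -0.76 for the carriers and 0.03 for all genes. Each of the 71 called carriers differed in 1 direction at every replicate number, and its 3 Positive libraries lay wholly above or wholly below its 3 Input libraries. The calls came from these same libraries, so the separation of called carriers is no further support. Such separation occurred in 26 of the 93 carriers upward and 52 downward, against 3498 (31.8%) and 3578 (32.6%) of all 10989 genes. Calls of more than 4-fold were seen in 5 higher carriers (5.38%, against 4.39% of all genes) and 26 lower ones (28%, against 13.8%). Falls of more than 8-fold were seen in 19 carriers (20.4%, against 7.89%).

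The table holds only genes with a raw value of at least 50 in all libraries of at least 1 fraction, and this bears on these counts. Of the carriers 68 passed that minimum in both fractions, 23 in Input only and 2 (Slc38a11 and Slc16a12) in Positive only. Among the 68 kept through both fractions, 21 were higher (30.9%) and 32 lower (47.1%), against 30.4% and 19.9% of the 8509 genes kept that way. Of these 68, 11 fell by more than 4-fold (16.2%, against 4.41%). The fractions of these 68 were separated upward in 24 and downward in 32. The matching shares over all genes kept through both fractions were not computed. The 2 carriers kept through Positive alone were both separated upward. Of the 23 kept through Input alone 20 were separated downward, 17 were called lower and 0 higher. These 17 were Slc2a4, Slc2a13, Slc7a4, Slc7a10, Slc13a3, Slc13a4, Slc13a5, Slc14a1, Slc17a7, Slc19a2, Slc22a4, Slc22a23, Slc32a1, Slc45a1, Slc45a3, Slc46a1 and Slc47a1, and they made up 15 of the 26 falls of more than 4-fold. A gene kept through Input alone passed because it was high there, so that split is no support for a fall of carriers in general. Organic carriers of the mouse genome that are absent from the table were not analysed here.

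**Figure D1:**
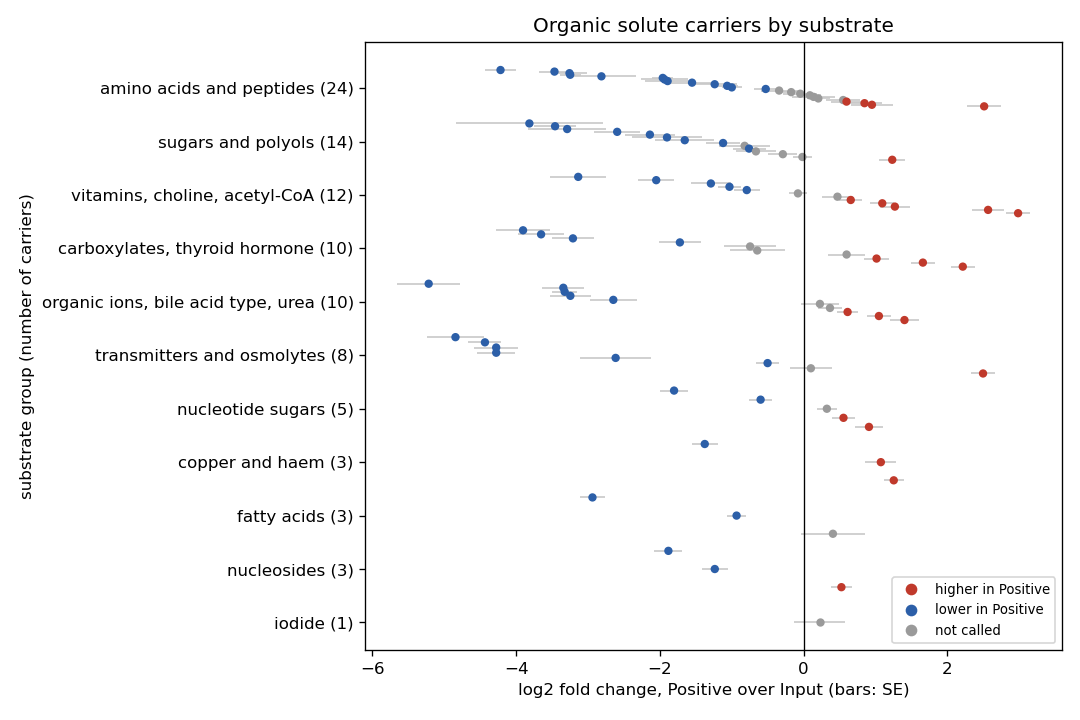
Log2 fold change of Positive over Input for each of the 93 carriers (points; horizontal bars are SE), in rows by substrate with the number of carriers. Red points are higher, blue points lower and grey points not called; sugars and polyols hold 1 red point among 14, and vitamins, choline and acetyl-CoA hold 5 red and 5 blue.

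Vitamin and cofactor carriers were split evenly and held the 2 largest rises. Of 12 carriers of vitamins, choline and acetyl-CoA, 5 were higher (Slc19a3, Slc52a3, Slc52a2, Slc46a3 and Slc5a6) and 5 lower (Slc46a1, Slc44a1, Slc19a2, Slc33a1 and Slc23a2). Slc19a3, a thiamine carrier (chromosome 1, 83012523 to 83038448, mm10), had the largest rise of the 93. Its levels, always given here in the order of replicates 1222, 1223 and 1227, were 29.7, 38.6 and 26.4 CPM in Input and 263, 232 and 247 CPM in Positive. The lowest Positive library was far above the highest Input library, and the log2 fold change was 2.99 ± 0.17 (SE; 7.92-fold, adjusted p = 3.62e-06). Slc52a3, a riboflavin carrier (chromosome 2, 151996511 to 152009258), stood at 17.7, 25.8 and 26.3 CPM in Input and 112, 129 and 171 CPM in Positive, which was log2 2.57 ± 0.23 (adjusted p = 2.41e-05). The related riboflavin carrier Slc52a2 was at 19.7, 34.6 and 25.7 CPM in Input and 60.8, 62.3 and 67.1 CPM in Positive (log2 1.27 ± 0.21). So both riboflavin carriers of the table rose, Slc52a3 by more in the fitted values; the difference between the 2 genes was not tested.

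Carriers of other vitamins followed no common direction. Slc5a6, the sodium-dependent multivitamin carrier of biotin and pantothenate, stood at 61.3, 46.3 and 54.3 CPM in Input and 82.3, 99.1 and 75.8 CPM in Positive (log2 0.66 ± 0.16, adjusted p = 0.00815). The lysosomal carrier Slc46a3 was at 50.02, 39.6 and 52.1 CPM in Input and 100.2, 87.8 and 116 CPM in Positive (log2 1.10 ± 0.16). Its relative Slc46a1, the proton-coupled folate carrier, had 45.2, 33.2 and 56.04 CPM in Input and 6.78, 1.77 and 5.4 CPM in Positive (log2 -3.14 ± 0.39), so these 2 family members were called in opposite directions, although Slc46a1 was kept through Input alone. Slc19a2, which like Slc19a3 carries thiamine, was low throughout, at 12.5, 13.8 and 11.7 CPM in Input and 4.48, 4.88 and 5.93 CPM in Positive (log2 -1.29 ± 0.27, adjusted p = 0.00365). It was kept through Input alone, and lost its call on leaving out both 1222 libraries (-1.21). Slc19a1, the reduced folate carrier, did not pass (log2 0.47 ± 0.21, adjusted p = 0.0921), though it did with the replicate number as a block (log2 0.48, adjusted p = 0.0317).

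The promoters of the 2 thiamine carriers are shown because these genes carry the same vitamin and moved in opposite directions. Both come from RefSeq's annotation of GRCm38.p6, the build named mm10 in the table's notes, and run 5′ to 3′ on the gene's strand from 250 bases before to 50 bases from the start. Capitals mark the GC box GGGCGG on either strand, where matches next to each other form 1 run of capitals. Slc19a3 lies at chr1:83038399-83038698 on the minus strand and Slc19a2 at chr1:164248796-164249095 on the plus strand.
Slc19a3: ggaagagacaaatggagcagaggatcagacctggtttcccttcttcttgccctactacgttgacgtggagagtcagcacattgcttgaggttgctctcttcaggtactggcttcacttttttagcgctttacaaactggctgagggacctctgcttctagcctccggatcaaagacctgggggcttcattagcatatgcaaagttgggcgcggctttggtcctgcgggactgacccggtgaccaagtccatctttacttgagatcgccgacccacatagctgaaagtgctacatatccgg
Slc19a2: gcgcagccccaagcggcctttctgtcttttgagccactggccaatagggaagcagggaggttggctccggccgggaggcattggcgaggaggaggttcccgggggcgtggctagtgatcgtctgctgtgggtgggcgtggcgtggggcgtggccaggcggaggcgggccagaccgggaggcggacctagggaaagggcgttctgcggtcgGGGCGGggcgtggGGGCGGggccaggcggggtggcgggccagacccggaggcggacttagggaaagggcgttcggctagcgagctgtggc
The Slc19a3 window held no GC box, 11 CpG dinucleotides and 52% G and C. In the Slc19a2 window there were 2 GC boxes, 28 CpG dinucleotides and 72% G and C. A GC box is present in 35.7% of the 32851 RefSeq promoters of that length, whose median CpG count is 7. The letters CGGAAG, a core recognised by ETS factors, were searched on both strands too and are in neither window, against 16.9% of all promoters.

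No choline or ascorbate carrier was called higher. Slc44a1, a choline carrier-like protein, stood at 359, 600.1 and 407 CPM in Input and 121, 79.2 and 128 CPM in Positive (log2 -2.05 ± 0.25, adjusted p = 0.000152), with its highest Input value in 1223, where the oligodendrocyte marker sum was also highest (29000 against 19500 and 20700 CPM); the part of that sum in this result was not tested. Its relative Slc44a2 had 137, 136 and 161 CPM in Input and 127, 137 and 148 CPM in Positive, a difference of log2 -0.08 ± 0.13 that did not pass (adjusted p = 0.631). The ascorbate carrier Slc23a2 was at 225, 154 and 208 CPM in Input and 132, 94.9 and 113 CPM in Positive (log2 -0.79 ± 0.18, adjusted p = 0.00597) and lost its call on leaving out both 1227 libraries (-0.74). Slc33a1, which brings acetyl-CoA into the endoplasmic reticulum, had 60.4, 64.5 and 71.2 CPM in Input and 32.3, 25.9 and 36.9 CPM in Positive (log2 -1.03 ± 0.17).

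Transmitter and osmolyte carriers combined the most abundant rising gene with several deep falls. Of 8, only the taurine carrier Slc6a6 was higher, 6 were lower and the GABA carrier Slc6a13 did not pass (log2 0.10 ± 0.30, adjusted p = 0.788). Slc6a6 (chromosome 6, 91684067 to 91759063) stood at 622, 847 and 659 CPM in Input and 3729, 4051 and 4234 CPM in Positive, a log2 fold change of 2.50 ± 0.17 (5.65-fold, adjusted p = 6.72e-06). It held 6.76%, 8.69% and 6.24% of the summed CPM of the 93 carriers in Input, and 42.8%, 44.6% and 44.5% in Positive. The other 7 genes of its group held 25.9%, 25.3% and 30.5% in Input and 2.15%, 2.06% and 2.62% in Positive. Summed over all 93, the ranges of the fractions overlapped, at 9203, 9748 and 10563 CPM in Input and 8715, 9086 and 9508 CPM in Positive.

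Plasma membrane carriers of GABA and glycine, which clear transmitter, were among the genes that fell. Slc6a11, the GABA carrier known best from astrocytes (chromosome 6, 114131241 to 114249886), was at 1176, 1115 and 1661 CPM in Input and 62.3, 45.9 and 93.9 CPM in Positive, a log2 fold change of -4.28 ± 0.30 (19.4-fold lower, adjusted p = 8.27e-06). The glycine carrier Slc6a9 was at 344, 459 and 453 CPM in Input and 18.1, 14.4 and 24.3 CPM in Positive (log2 -4.43 ± 0.23); 27.8% of its annotated exon bases are shared with Ccdc24 on the opposite strand, and no source used here says whether counting used strand. In Positive, Slc6a11 and Slc6a9 were highest in 1227, the library in which the oligodendrocyte sum was highest too (1410 against 892 and 653 CPM). Of the 12 lower astrocyte markers 7 were also highest in Positive 1227, while their sum was 969 CPM there against 991 and 648 CPM. The astrocyte markers, of which 12 of 13 were lower, had a median log2 fold change of -3.53; their part in these falls was not tested.

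Both vesicular carriers of this group, which load transmitter into synaptic vesicles, were lower. Slc17a7, the vesicular glutamate carrier of many excitatory neurons, had 46.8, 54.5 and 66.96 CPM in Input and 1.18, 3.99 and 1.64 CPM in Positive (log2 -4.84 ± 0.40, adjusted p = 1.55e-05). Slc32a1, which loads GABA and glycine, was at 13.3, 15.98 and 13.99 CPM in Input and 1.27, 4.88 and 1.69 CPM in Positive (log2 -2.62 ± 0.50, and -3.22 without Positive 1223). Both were kept through Input alone. The neuronal markers had a median log2 fold change of -4.00 with 8 of 9 lower, and their part in these falls was not tested. By contrast the creatine carrier Slc6a8 fell little, with 91.4, 103 and 86.9 CPM in Input and 58.1, 81.4 and 59.8 CPM in Positive (log2 -0.50 ± 0.17, adjusted p = 0.0301), and it lost its call on leaving out Input 1222 (-0.52), Input 1223 (-0.43), Input 1227 (-0.55), Positive 1222 (-0.42), Positive 1227 (-0.43), both 1222 libraries (-0.44) or both 1227 libraries (-0.48), and with limma on the deposited log2 values (-0.44).

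**Figure D2:**
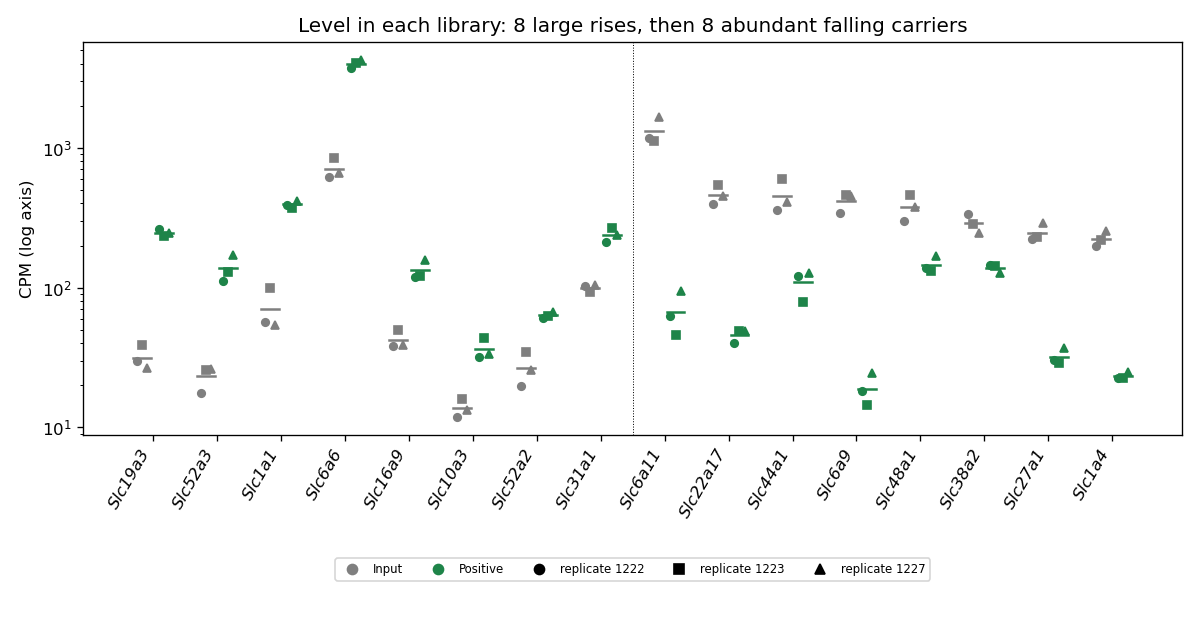
CPM on a log axis in each library for 8 of the carriers with the largest rises (left of the dotted line) and 8 of the most abundant lower carriers (right); grey is Input, green is Positive, symbols are replicate numbers and short lines are means of 3 libraries. Slc6a6 stands highest in Positive, and for every gene shown the green and grey points do not overlap.

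Carboxylate and thyroid hormone carriers held 3 higher, 4 lower and 3 uncalled genes among 10. Slc16a9, a less studied member of the monocarboxylate family, was at 38.2, 49.9 and 38.9 CPM in Input and 119.8, 122 and 157 CPM in Positive (log2 1.66 ± 0.17, adjusted p = 6.2e-05). It shares 12.7% of its exon bases with Gm7097 and 10.8% with Gm9877, both on the opposite strand. Slc16a13 was at 12.5, 13.6 and 13.4 CPM in Input and 27.4, 26.8 and 25.7 CPM in Positive (log2 1.02 ± 0.17). Both thus at least doubled in the fitted values, and in neither did the fractions overlap. Slc16a6 went the other way, with 81.6, 39.4 and 67.5 CPM in Input and 22.2, 21.95 and 13.8 CPM in Positive (log2 -1.72 ± 0.30, adjusted p = 0.00121); its Input value was lowest in 1223, as was the microglial marker sum (6690 against 12200 and 11800 CPM). The part of microglial RNA in that value was not tested, and 21.5% of the exon bases of Slc16a6 are shared with Amz2 on the opposite strand.

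All 3 tested members of family 13, sodium-coupled carriers of dicarboxylates and sulfate, fell. Slc13a3, a carrier of dicarboxylates such as succinate, had 89.2, 111 and 124 CPM in Input and 9.27, 3.77 and 10.96 CPM in Positive (log2 -3.65 ± 0.32, adjusted p = 2.3e-05). The citrate carrier Slc13a5 had 38.7, 54.1 and 53.7 CPM in Input and 2.08, 5.99 and 2.75 CPM in Positive (log2 -3.90 ± 0.37), and Slc13a4, which carries sulfate, fell by 3.21 on the log2 scale. All 3 were kept through Input alone, and none was above 10.96 CPM in any Positive library. The aromatic amino acid and thyroid hormone carrier Slc16a10, with 11.8, 14.8 and 10.5 CPM in Input and 10.3, 7.1 and 4.39 CPM in Positive, did not pass (log2 -0.74 ± 0.36, adjusted p = 0.107) but did without Positive 1222 (-1.13). Slc16a11 (log2 -0.64 ± 0.38, adjusted p = 0.177) and the creatine carrier Slc16a12 (log2 0.60 ± 0.25, adjusted p = 0.0728) did not pass either. Slc16a12 passed with DESeq2 (0.60) and with limma on the deposited log2 values (0.67). Slc16a10 and Slc16a11 were kept through Input alone and Slc16a12 through Positive alone, each where it was high. That their fractions did not overlap is therefore no support for a difference.

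Amino acid and peptide carriers, the largest group, fell in 13 of 24 cases, rose in 4 and did not pass in 7, with a median log2 fold change of -0.76. The rise that stood out was that of Slc1a1, a neuronal-type carrier of glutamate and cysteine (chromosome 19, 28835166 to 28913960). Its levels were 56.5, 98.7 and 54.1 CPM in Input and 393, 369 and 419.7 CPM in Positive, a log2 fold change of 2.51 ± 0.24 (5.71-fold, adjusted p = 3.75e-05); 31.9% of its exon bases are shared with 4430402I18Rik on the opposite strand. The other 3 rises were small. Slc36a1, a proton-coupled carrier of small amino acids found on lysosomes, was at 49.2, 23.97 and 35.8 CPM in Input and 72.04, 70.7 and 56.6 CPM in Positive (log2 0.85 ± 0.25, adjusted p = 0.0178) and lost its call on leaving out Input 1227 (0.83), Positive 1223 (0.80), both 1223 libraries (0.59) or both 1227 libraries (0.94). Slc38a11, kept through Positive alone, was at 5.64, 8.79 and 6.54 CPM in Input and 11.5, 11.97 and 16.3 CPM in Positive (log2 0.95 ± 0.29, adjusted p = 0.0221) and lost its call on leaving out Input 1222 (0.81), Input 1227 (0.90), Positive 1227 (0.77), both 1222 libraries (0.91) or both 1227 libraries (0.72). Slc7a6, an exchanger of cationic and neutral amino acids, had 12.8, 11.2 and 10.9 CPM in Input and 17.8, 15.1 and 19.9 CPM in Positive (log2 0.60 ± 0.21, adjusted p = 0.0398); it did not pass with library size alone as the scaling (0.44), nor on leaving out Input 1222 (0.67), Input 1223 (0.58), Input 1227 (0.55), Positive 1222 (0.60), Positive 1227 (0.50), both 1222 libraries (0.67) or both 1227 libraries (0.45). The count of 4 was 2 without Input 1222, 1 without Input 1227, 2 without Positive 1227, 2 on leaving out both 1222 libraries and 1 on leaving out both 1227 libraries.

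The deepest falls of this group were in 4 carriers of small amino acids, glutamine and cystine. Slc7a10, which exchanges D-serine and glycine and is known from astrocytes, was at 197, 216 and 251 CPM in Input and 10.4, 9.09 and 15.1 CPM in Positive (log2 -4.22 ± 0.22, 18.6-fold lower, adjusted p = 2.97e-06). It shares 17.9% of its exon bases with Lrp3 on the opposite strand, which was lower too (log2 -2.45). Slc1a4, a carrier of serine, alanine and cysteine, was at 198, 218 and 253 CPM in Input and 22.7, 22.4 and 24.9 CPM in Positive (log2 -3.25 ± 0.15). Slc38a1, a glutamine carrier of the system A type, had 189.7, 135 and 184 CPM in Input and 13.3, 19.5 and 14.2 CPM in Positive (log2 -3.47 ± 0.21), and its genomic neighbour Slc38a2 had 335, 287 and 247 CPM in Input and 146, 144 and 126 CPM in Positive (log2 -1.06 ± 0.15). Although both neighbours fell, Slc38a2 still held 126 to 146 CPM in the sorted cells, against 13.3 to 19.5 CPM for Slc38a1. Slc7a11, the cystine and glutamate exchanger, was at 163, 111 and 170.3 CPM in Input and 19.6, 12.2 and 13.7 CPM in Positive (log2 -3.26 ± 0.24, adjusted p = 1.05e-05).

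Other members of family 7 differed in size and direction. Slc7a2, a carrier of arginine and lysine, had 90.2, 73.3 and 81.7 CPM in Input and 20.6, 22.2 and 20.4 CPM in Positive (log2 -1.96 ± 0.14, adjusted p = 9.5e-06), whereas its relative Slc7a1, which was set aside with the barrier carriers, was higher (log2 2.99 ± 0.21). Slc7a4 was barely present, at 6.23, 13.98 and 8.26 CPM in Input and 0.995, 1.77 and 1.22 CPM in Positive (log2 -2.81 ± 0.48). Slc7a8, an exchanger of large neutral amino acids, was at 175, 100.3 and 185 CPM in Input and 58.1, 34.4 and 27.5 CPM in Positive (log2 -1.93 ± 0.32, adjusted p = 0.00102). The set-aside Slc7a5, which exchanges a similar range of amino acids, was higher (log2 3.00 ± 0.14). Slc43a2, a uniporter of large neutral amino acids, did not pass, with 164, 176 and 235 CPM in Input and 172, 183 and 157 CPM in Positive (log2 -0.17 ± 0.16, adjusted p = 0.393). Slc7a7, the relative of Slc7a6, had 38.4, 35.6 and 41.6 CPM in Input and 27.2, 23.1 and 29.5 CPM in Positive (log2 -0.53 ± 0.16, adjusted p = 0.0213) and lost its call on leaving out Input 1222 (-0.53), Input 1227 (-0.47), Positive 1222 (-0.53), Positive 1223 (-0.44), both 1222 libraries (-0.55) or both 1227 libraries (-0.55), and with limma on the deposited log2 values (-0.46). Slc6a17, a vesicular carrier of neutral amino acids in neurons, was at 42.6, 40.4 and 43.8 CPM in Input and 11.03, 27.9 and 16.5 CPM in Positive (log2 -1.24 ± 0.30, adjusted p = 0.00793) and lost its call on leaving out both 1227 libraries (-1.13).

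The peptide and histidine carriers Slc15a2, Slc15a3 and Slc15a4 fell too, Slc15a2 and Slc15a3 by 1.89 and 1.55 on the log2 scale and Slc15a4 with 58.9, 58.5 and 56.8 CPM in Input and 30.5, 30.4 and 26.3 CPM in Positive. Together with Slc7a8 and the sugar phosphate carrier Slc37a2, Slc15a2 and Slc15a3 were at least 1.5 times higher in Positive 1222 than in the other Positive libraries, as were Slc22a23 and Slc14a1. In Positive the values of these 3 amino acid and peptide genes were 58.1, 34.4 and 27.5 CPM for Slc7a8, 19.2, 12.6 and 7.84 CPM for Slc15a2 and 26.4, 13.5 and 13.1 CPM for Slc15a3. Positive 1222 is the library with the highest perivascular macrophage sum and the highest microglial sum (3160 against 1750 and 1520 CPM). The part of those cells in the Positive levels was not tested; the falls of these genes passed without Positive 1222. Slc38a7, the lysosomal arginine sensor Slc38a9 and Slc38a10 did not pass (log2 0.09, -0.05 and 0.21), nor did Slc36a4, Slc1a5 and Slc7a14 (0.55, 0.14 and -0.34). Slc36a4 passed without Positive 1223 (0.70) or both 1223 libraries (0.72) and with limma (0.59).

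Of 14 sugar and polyol carriers 9 fell, 1 rose and 4 did not pass. The exception was Slc50a1, a sugar carrier of the SWEET type (chromosome 3, 89268246 to 89270570), at 27.2, 24.97 and 33.3 CPM in Input and 55.2, 75.4 and 72.8 CPM in Positive (log2 1.23 ± 0.18, adjusted p = 0.00047). Slc2a5, a fructose carrier known from microglia (chromosome 4, 150119344 to 150144168), was at 141, 73.5 and 160.2 CPM in Input and 10.1, 11.5 and 12.5 CPM in Positive (log2 -3.46 ± 0.30, 10.99-fold lower, adjusted p = 2.15e-05). Its Input level was lowest in 1223, like the microglial markers, whose part in this value was not tested. The other members of family 2, Slc2a12, Slc2a13, Slc2a4 and Slc2a8, fell by 2.59, 2.14, 1.90 and 0.76 on the log2 scale, and Slc2a10 did not pass (log2 -0.66 ± 0.28, adjusted p = 0.0682), although it passed with the replicate block (-0.68), DESeq2 (-0.68), limma (-0.60) and library size alone (-0.81), and without Positive 1223 (-0.82) or both 1223 libraries (-0.82). Slc2a4, the insulin-responsive glucose carrier, was at 1.36 to 2.81 CPM in Positive, and Slc2a13 carries myo-inositol. So none of the 6 tested relatives of Slc2a1, itself at 788, 1149.5 and 874 CPM in Input and 4451, 4846 and 5099 CPM in Positive, was called higher in the sorted cells. Slc2a4, Slc2a10 and Slc2a13 were kept through Input alone, where they were high. For these genes the lack of a higher call is therefore no support for a difference from Slc2a1. Slc2a8 lost its call on leaving out Input 1222 (-0.74), Input 1227 (-0.54), Positive 1227 (-0.72), both 1222 libraries (-0.78) or both 1227 libraries (-0.50), and with limma on the deposited log2 values (-0.63).

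Other sugar carriers were low or did not pass. Slc45a1 was uneven, with 2.92, 16.2 and 3.55 CPM in Input and 0.271, 1.33 and 0.212 CPM in Positive; its log2 fold change was -3.82 ± 1.02 (adjusted p = 0.00878), and -2.75 without Input 1223 or -4.46 without Positive 1223. The shallow 1223 libraries held the highest value of their fraction for Slc45a1 and for Slc45a3, which fell by 3.29 on the log2 scale. Both Slc45a1 and Slc45a3 were kept through Input alone. Slc45a4 fell by 1.12 and lost its call on leaving out both 1227 libraries (-1.03). Slc37a2 fell by 1.65, or by 2.33 without Positive 1222. Slc37a3 had 47.1, 50.7 and 52.4 CPM in Input and 54.04, 44.3 and 49.7 CPM in Positive, which differed by less than the spread between libraries (log2 -0.02 ± 0.14, adjusted p = 0.931), and Slc37a4, the glucose 6-phosphate carrier of the endoplasmic reticulum, did not pass (log2 -0.29). The myo-inositol carrier Slc5a3, which is osmotically regulated like Slc6a6, was at 22.2 to 27.2 CPM in Input and at 9.32, 23.5 and 9.90 CPM in Positive (log2 -0.82 ± 0.36, adjusted p = 0.079). It was lower with the replicate block (-0.93, adjusted p = 0.0467), DESeq2 (-0.82) and library size alone (-0.98), and without Positive 1223 (-1.33) or both 1223 libraries (-1.36); the shallow library Positive 1223 was the one that overlapped with Input.

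Carriers of organic cations and anions, bile acid type substrates and urea held 3 higher and 5 lower genes of 10. Slc22a5, the carnitine carrier (chromosome 11, 53864542 to 53891703), was at 32.3, 31.4 and 36.2 CPM in Input and 47.1, 55.2 and 51.3 CPM in Positive (log2 0.61 ± 0.14, adjusted p = 0.00594) and lost its call on leaving out both 1227 libraries (0.68). Slc22a4, the ergothioneine carrier that lies 91.4 kb away on the same strand (chromosome 11, 53983126 to 54028090), was at 20.5, 28.4 and 30.97 CPM in Input and 2.17, 3.1 and 3.07 CPM in Positive (log2 -3.25 ± 0.28, 9.48-fold lower). Slc22a4 was kept through Input alone, so the table could hold it only with a high Input level. Slc10a3 and Slc10a7, relatives of the bile acid carriers, were at 11.9, 15.98 and 13.3 CPM in Input and 31.97, 43.5 and 33.3 CPM in Positive and at 22.3, 25.6 and 19.4 CPM in Input and 44.5, 52.5 and 41.9 CPM in Positive. Both rose, by log2 1.40 ± 0.20 and 1.05 ± 0.17. Slc10a3 shares 12.8% of its exon bases with Ubl4a on the same strand.

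The promoters of the neighbouring carnitine and ergothioneine carriers are shown because these genes of 1 family were called in opposite directions, with GC boxes in capitals. Slc22a5 lies at chr11:53891654-53891953 and Slc22a4 at chr11:54028055-54028354, both on the minus strand.
Slc22a5: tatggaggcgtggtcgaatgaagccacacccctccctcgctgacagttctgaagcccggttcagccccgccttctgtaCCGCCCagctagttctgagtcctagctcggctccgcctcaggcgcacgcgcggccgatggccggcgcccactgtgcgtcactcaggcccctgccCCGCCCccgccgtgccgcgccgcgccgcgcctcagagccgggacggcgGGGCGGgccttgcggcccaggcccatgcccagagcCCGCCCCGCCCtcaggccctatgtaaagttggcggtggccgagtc
Slc22a4: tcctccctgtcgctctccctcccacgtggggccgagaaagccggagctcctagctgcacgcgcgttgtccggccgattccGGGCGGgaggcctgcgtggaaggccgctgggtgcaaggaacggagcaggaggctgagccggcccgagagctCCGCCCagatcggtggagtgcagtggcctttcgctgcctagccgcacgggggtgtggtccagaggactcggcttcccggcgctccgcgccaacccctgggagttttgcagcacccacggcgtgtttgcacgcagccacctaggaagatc
Slc22a5 had 5 GC boxes and 34 CpG dinucleotides, and Slc22a4 had 2 GC boxes and 29 CpG dinucleotides; CGGAAG was in neither. Each of these windows held more CpG than that of Slc19a3, the higher gene Slc22a5 and the lower gene Slc22a4 alike.

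The deepest fall of the 93 was that of Slc47a1, an exporter of organic cations (chromosome 11, 61343400 to 61378075) that was kept through Input alone, as were Slc22a23 and Slc14a1. It was at 48.6, 18.8 and 33.6 CPM in Input and 0.995, 0.887 and 0.635 CPM in Positive, a log2 fold change of -5.22 ± 0.44 (37.2-fold lower, adjusted p = 1.7e-05), and every Positive library was below 1 CPM. Slc22a17, a brain-enriched member also described as a receptor of lipocalin 2, was the most abundant of the group in Input but not in Positive. It was at 394, 538 and 451 CPM in Input and 40.02, 49 and 49.1 CPM in Positive (log2 -3.32 ± 0.17). Slc22a23, a carrier of unknown substrate, had 117, 136 and 94.3 CPM in Input and 16.1, 7.54 and 9.05 CPM in Positive (log2 -3.34 ± 0.29, adjusted p = 2.36e-05). The urea carrier Slc14a1 fell by 2.65 on the log2 scale. Slc17a5, which exports sialic acid from lysosomes, and Slc22a15 did not pass (log2 0.37 and 0.23, adjusted p = 0.0941 and 0.494), except Slc17a5 with limma (0.45).

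Nucleoside carriers differed by member. The equilibrative nucleoside carrier Slc29a1 was at 46.2, 45.9 and 57.1 CPM in Input and 73.7, 74.5 and 67.6 CPM in Positive (log2 0.53 ± 0.14, adjusted p = 0.0125); it did not pass with library size alone as the scaling (0.37), nor on leaving out both 1222 libraries (0.45) or both 1223 libraries (0.45). Its lysosomal relative Slc29a3 had 221, 180.4 and 211 CPM in Input and 71.3, 44.6 and 49.5 CPM in Positive (log2 -1.88 ± 0.20, adjusted p = 6.36e-05). Slc29a4, which carries monoamines, was at 47.2, 39.2 and 42.7 CPM in Input and 16.1, 22.4 and 17.1 CPM in Positive (log2 -1.24 ± 0.18). All 3 members of this family were called, 1 higher and 2 lower.

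Nucleotide sugar carriers of the Golgi, which supply the enzymes that build glycans, were higher in 2 of 5 cases and lower in 2. Slc35a1, the carrier of CMP-sialic acid, was at 20.6, 28.4 and 21.6 CPM in Input and 35.2, 47.7 and 49.1 CPM in Positive (log2 0.91 ± 0.20, adjusted p = 0.00446) and lost its call on leaving out both 1227 libraries (0.76). Slc35a3, a carrier of UDP-N-acetylglucosamine, was at 35.7, 27.4 and 31.3 CPM in Input and 41.7, 49.2 and 48.9 CPM in Positive (log2 0.56 ± 0.16, adjusted p = 0.0166); it did not pass with library size alone (0.40), nor on leaving out Input 1227 (0.55), Positive 1227 (0.52), both 1223 libraries (0.43) or both 1227 libraries (0.51). For the UDP-galactose carrier Slc35a2 the values were 44.99, 42.8 and 51.5 CPM in Input and 27.4, 30.4 and 34.3 CPM in Positive (log2 -0.60 ± 0.16, adjusted p = 0.0107), and it lost its call on leaving out Input 1227 (-0.51), both 1222 libraries (-0.55) or both 1227 libraries (-0.60), and with limma on the deposited log2 values (-0.53). Slc35a5 was at 49.1, 75.9 and 74.5 CPM in Input and 18.2, 19.1 and 19.6 CPM in Positive (log2 -1.80 ± 0.20) and kept its call in each alternative run. Slc35a4 had 74.7, 73.9 and 87.9 CPM in Input and 103, 85.6 and 108 CPM in Positive and did not pass (log2 0.32 ± 0.14, adjusted p = 0.085), except with the replicate block (0.32, adjusted p = 0.0324). The 2 higher genes of this group became 1 with library size alone or on leaving out Input 1227, Positive 1227 or both 1223 libraries, and 0 on leaving out both 1227 libraries. Its 2 lower genes became 1 with limma or on leaving out Input 1227, both 1222 or both 1227 libraries.

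Neither of the better known fatty acid carriers rose. Slc27a1 was at 222, 231 and 289 CPM in Input and 30.5, 28.8 and 36.9 CPM in Positive (log2 -2.94 ± 0.17, 7.66-fold lower, adjusted p = 3.62e-06). Slc27a4 was at 97.2, 115 and 101 CPM in Input and 54.9, 49.7 and 58.6 CPM in Positive (log2 -0.93 ± 0.13, adjusted p = 0.000424). Slc27a3 was low, at 5.17, 12.6 and 4.23 CPM in Input and 10.6, 8.87 and 8.21 CPM in Positive, and did not pass (log2 0.41 ± 0.44, adjusted p = 0.456) although it did without Input 1223 (0.97) or both 1223 libraries (0.99). The lipid carrier Mfsd2a, which belongs to another family and brings lysophospholipids with long-chain fatty acids into brain, was higher, at 121, 105 and 115 CPM in Input and 535, 512 and 469.9 CPM in Positive (log2 2.15 ± 0.13).

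The genes that family number alone placed here behaved as follows. Both copper carriers rose: Slc31a1, the high-affinity copper importer, was at 103, 92.3 and 104 CPM in Input and 211, 269 and 238 CPM in Positive (log2 1.26 ± 0.14, adjusted p = 7.98e-05), and its neighbour Slc31a2 at 24.8, 39.8 and 23.3 CPM in Input and 57.3, 63.2 and 61.9 CPM in Positive (log2 1.08 ± 0.21). They lie 62.3 kb apart on chromosome 4. The haem carrier Slc48a1 of lysosomes was at 298, 458 and 379 CPM in Input and 138, 131 and 167 CPM in Positive (log2 -1.38 ± 0.18, adjusted p = 0.000274). Slc5a5, the iodide carrier, was at 6.99, 14.4 and 9.16 CPM in Input and 11.4, 7.76 and 15.04 CPM in Positive and did not pass (log2 0.22 ± 0.36, adjusted p = 0.619).

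Of the 23 families with at least 2 members among the 93, 10 had members called in both directions (families 1, 6, 7, 16, 19, 22, 29, 35, 38 and 46), 8 had only lower calls and 5 only higher calls. Of all 93 carriers 23.7% were higher and 52.7% lower, so a group of several may hold both calls whatever its family. How often such groups would do so was not computed, and the count is no trait of the families. In families 19, 38 and 46 the split rests on a gene that was kept through 1 fraction alone, where it is high (Slc19a2 and Slc46a1 in Input, Slc38a11 in Positive). Counting only carriers kept through both fractions, 7 of 19 such families had calls in both directions. Falls alone were seen, for example, in families 2, 13, 15, 27 and 45, and rises alone in families 10, 31 and 52. All members of family 13 and some of families 2, 27 and 45 were kept through Input alone. The splits included thiamine (Slc19a3 and Slc19a2), glutamate and neutral amino acid (Slc1a1 and Slc1a4), nucleoside (Slc29a1 and Slc29a3), carnitine and organic cation (Slc22a5 and Slc22a4) carriers and family 46 (Slc46a3 and Slc46a1). Counting is less certain for 11 carriers that share at least 10% of their exon bases with another gene. Among them are Slc33a1, Slc15a3, Slc32a1, Slc45a3 and Slc7a4 besides those named with their share. Differences between members of a family were not tested; each call rests on the gene's own test. Of 7 pairs of carriers that lie within 200 kb of each other, 3 fell together (among them Slc38a1 with Slc38a2 and Slc7a8 with Slc22a17) and 1 rose together (Slc31a2 with Slc31a1). Slc22a5 and Slc22a4 went opposite ways, and in 2 pairs 1 gene was not called (Slc16a11 with Slc16a13, which lie 0.4 kb apart, and Slc13a3 with Slc2a10).

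**Figure D3:**
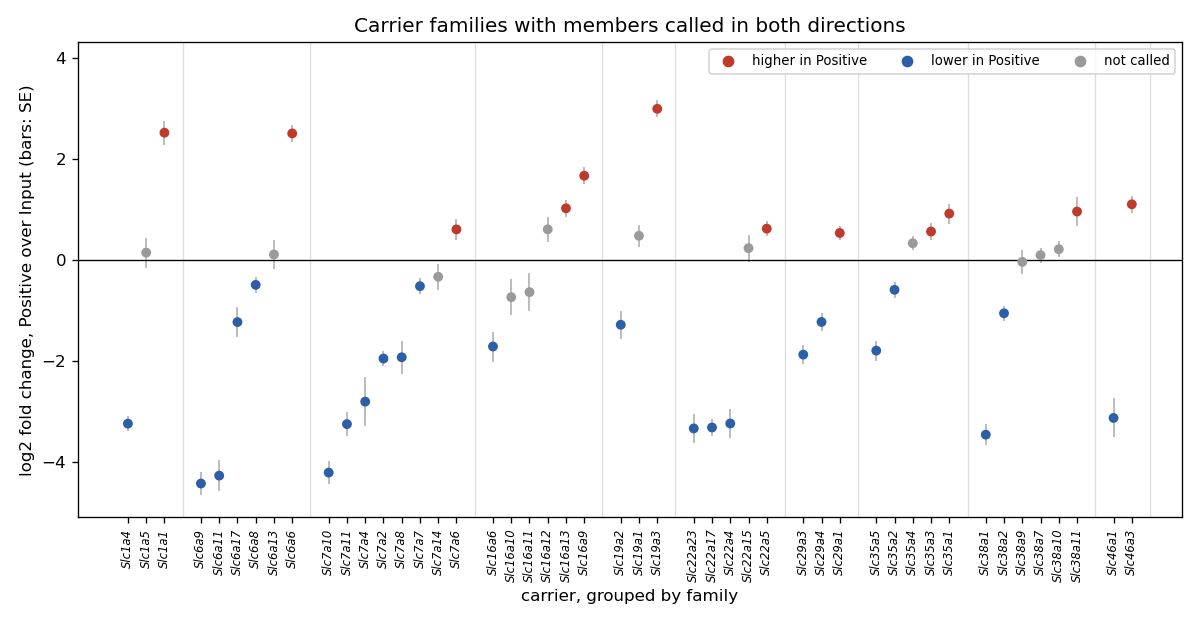
Log2 fold change of Positive over Input (points; bars are SE) for carriers of the 10 families with at least 1 higher (red) and 1 lower (blue) call; grey points are not called and vertical lines separate families. Slc19a3, Slc1a1 and Slc6a6 lie above 2 while each of their families also has a blue point below -1.

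Levels can be compared between genes only per length, for which CPM was divided by the kilobases of exon in GENCODE M21. By this scale Slc6a6 led the sorted cells with 474 ± 30.2 CPM per kb (SD, n = 3), and Slc19a3 reached 80.7 ± 5.11. The ranges of these genes did not overlap. Lower places were held by Slc31a1 (55.9 ± 6.78), Slc48a1 (52.9 ± 6.95), Slc52a3 (49.7 ± 11.04), Slc1a1 (47.7 ± 3.05), Slc50a1 (46.2 ± 7.51) and Slc46a3 (41.2 ± 5.76), whose neighbours in the order lie within each other's spread. Of the genes named in this order, Slc48a1 is the only one called lower. In Input high places were held by Slc6a11 (261 ± 59.2 CPM per kb), Slc48a1 (138 ± 29.2), Slc7a10 (105 ± 13.04) and Slc22a17 (102 ± 16.1). Slc19a3 held place 44 of 93 in Input and place 3 in Positive, while Slc6a11 went from place 1 to place 24.

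**Figure D4:**
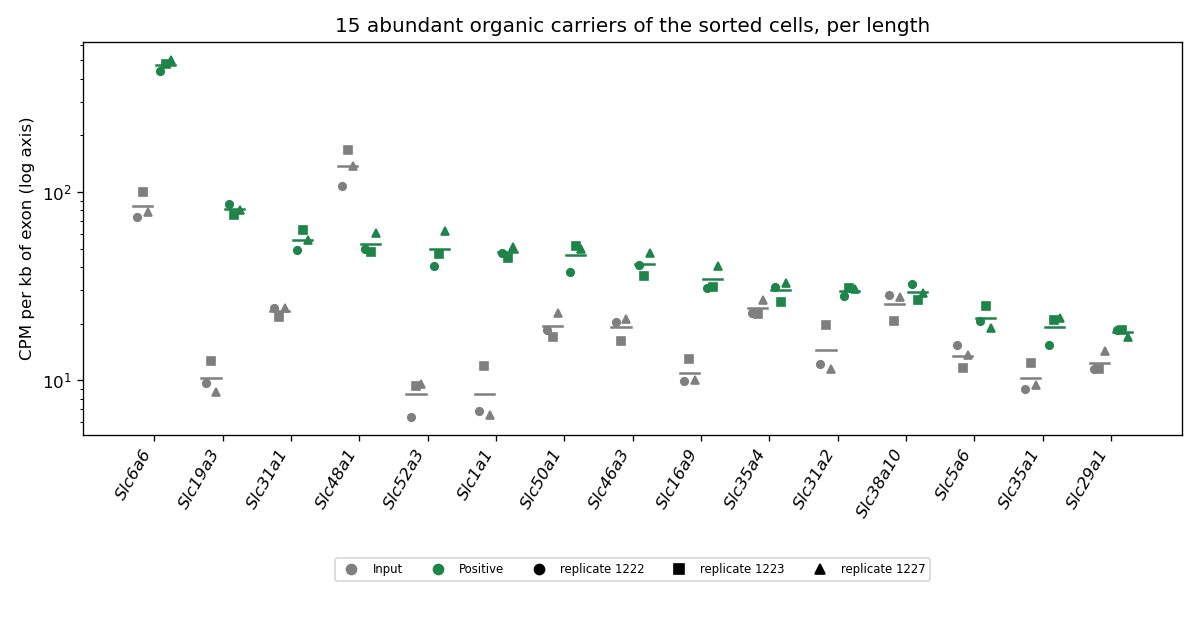
CPM per kb of exon on a log axis for 15 of the carriers with the highest mean per-length levels in Positive, in falling order; grey is Input, green is Positive, symbols are replicate numbers and short lines are means. Slc6a6 and Slc19a3 stand apart at the left, and Slc48a1 is the gene whose grey points lie well above its green ones.

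Gene Ontology terms of the deposited table, present for all 93, place some of the carriers in the cell. Only selected terms were matched, so the counts leave out carriers annotated with other terms. Of 43 with the plasma membrane term 13 were higher (30.2%, against 26.1% of all genes) and 22 lower (51.2%, against 29.4%). Slc6a6, Slc6a11, Slc7a10, Slc1a4 and Slc5a6 are not among these 43. Of 7 with a Golgi term 3 were higher (Slc35a3, Slc35a1 and Slc50a1) and 2 lower. Among 6 with a lysosome or endosome term 1 was higher (Slc36a1) and 4 lower (Slc15a3, Slc48a1, Slc29a3 and Slc2a4). Slc46a3, which was called higher, and Slc38a9, both described above as lysosomal, are not among these 6. All 3 with a synaptic vesicle term (Slc17a7, Slc32a1 and Slc2a8) were lower. The counts were not tested, and a gene may be in several of them.

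Carriers outside the 93 differed in their counts. Of the 12 set-aside carriers 9 were higher and 3 lower, with a median log2 fold change of 2.20, but these were chosen as known barrier or astrocyte genes. Of the 90 inorganic ion, metal and mitochondrial carriers 16 were higher (17.8%) and 42 lower (46.7%), with a median log2 fold change of -0.47. Of 32 tested organic carriers with other symbols 12 were higher and 12 lower (37.5% each). Over all genes 26.1% were higher and 29.4% lower. Among these, the organic anion carrier Slco1a4 had 499.7, 671 and 505 CPM in Input and 4151, 4705 and 4272 CPM in Positive (log2 2.97 ± 0.17), the thyroid hormone carrier Slco1c1 had 472, 668 and 486 CPM in Input and 2494, 3127 and 2717 CPM in Positive (log2 2.36 ± 0.19), and Slc35f2 had 22.6, 30.4 and 26.98 CPM in Input and 193, 199.6 and 234 CPM in Positive (log2 2.98 ± 0.16). The synaptic vesicle gene Sv2a was the deepest fall of that list (log2 -4.41). Differences between these sets were not tested.

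Of 24 tested genes that partner or regulate carriers, 9 were higher (37.5%, against 26.1% of all genes) and 7 lower (29.2%, against 29.4%). Bsg, the chaperone that brings several monocarboxylate carriers to the cell surface, was at 1442, 2639 and 1770.3 CPM in Input and 6717, 12092 and 9809.7 CPM in Positive (log2 2.29 ± 0.29), whereas Emb, a related chaperone, was at 51.05, 46.9 and 48.5 CPM in Input and 4.02, 11.1 and 3.71 CPM in Positive (log2 -3.10 ± 0.39). The scaffold Slc9a3r2 was higher (log2 2.60 ± 0.14) and its relative Slc9a3r1 lower (log2 -1.47 ± 0.20). Nfat5, the transcription factor of osmotic stress that acts on Slc6a6 and Slc5a3, was at 94.2, 95.1 and 56.04 CPM in Input and 185, 134 and 149 CPM in Positive (log2 0.94 ± 0.23, adjusted p = 0.00711). Atf4, which drives many amino acid carrier genes when amino acids are scarce, did not pass (log2 -0.15 ± 0.22, adjusted p = 0.584), and Ddit3, a gene of the same response, was lower (log2 -1.03 ± 0.20). Tbc1d4, which controls the surface level of Slc2a4 in muscle and fat, was higher (log2 2.33 ± 0.15) while Slc2a4 itself was lower.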

How the data were processed

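Total RNA was sequenced with a directional kit, per the labels. The deposited table gives estimated counts per gene (raw columns, 4.72% of values whole within 1e-06) and log2 normalised values. The file headers state a minimum raw value of 50, met by every kept gene throughout Input, Positive or both. The submitters' processing notes name mm10 and DESeq; aligner, counter and strand setting: not given in the sources used here. Coordinates are those of the table.

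Estimated counts were rounded and tested over all 10989 genes with edgeR 4.0.16 (R 4.3.3): TMM factors (0.94 to 1.082), filterByExpr with a minimum count of 10 (0 genes removed), quasi-likelihood test with 1 model term, Positive over Input, and Benjamini-Hochberg adjusted p below 0.05. Log2 fold changes use a prior count of 2; the SE is the unshrunken log2 fold change over the square root of F. The script was tested on simulated data. Alternatives were DESeq2 1.42.0, library size alone, no filter, mean CPM of at least 5, limma 3.58.1 on the authors' deposited log2 values, the replicate block, and leaving out each library or both libraries of a number.

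Deviations from the fraction means correlated at 0.45, 0.23 and 0.30 for the same number (1222, 1223, 1227) and at most 0.02 for others. On this ground the numbers were taken to pair the libraries in the replicate block. The main fit, which gave the p-values, SE and calls, did not use the pairing. Deviations from a fraction mean cancel out within the fraction, so these correlations are not independent of each other. All 93 carriers had an exon length in GENCODE M21. Library values are given for the 3 most abundant members of each substrate group, the 8 largest rises and falls, calls against the group's direction, and families split in direction; any further example was picked with its values in view. The carriers, lists and rules were chosen with earlier results of these data known. Some genes that these rules select are counted but not reported here by name. Protein sequences were not used here.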

Additional observations from a re-analysis of the deposited data

How the results depend on the processing

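The 22 higher and 49 lower carriers became 19 to 25 and 46 to 51 with other scalings, filters, tools or the replicate block, and 16 to 22 and 42 to 51 on leaving out single libraries or both of a number. Over all genes 2870 higher and 3227 lower became 1741 to 2755 and 2393 to 3207 with libraries left out, with the lowest values (1741 and 2393) without both of 1227. With the replicate block 24 carriers were higher and 51 lower (all genes 3298 and 3482); it ended no call and added Slc19a1, Slc2a10, Slc35a4 and Slc5a3. Of 1394 refitted values of single carriers over 15 alternatives, 56 lost the call, 22 gained it and 0 turned round with a call in either fit. The other 1316 kept their side of the threshold. Changes of direction in values uncalled in both fits are among these 1316 and were not counted apart. In all, 56 of the 71 calls (15 higher, 41 lower) held in every alternative that tested them; the 7 higher and 8 lower that did not are given beside their values. Library size alone gave 2165 higher and 3666 lower genes, and moved the median of all genes by -0.16 (log2), and that of the carriers by the same amount. No filter changed nothing, since 0 genes were removed, and a mean CPM of at least 5 left out Slc45a1. The lowest depth, 4772866 counts, limits what can be said of carriers at 1 or 2 CPM, such as Slc7a4.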
